A study of Homo sapiens with 32 samples.

Results

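Fibronectin and 6 matricellular or microfibril proteins were followed through the time course of TGFβ1 treatment. The members were the rows of the gene count table whose Ensembl identifier carries the symbol FN1, TNC, SPARC, POSTN, THBS1, FBN1 or TGFBI, so 7 of 17788 rows in all, and all 7 passed the filter on low counts that left 14865 genes for testing. The cells were MCF10A, an immortalized, non-tumorigenic human mammary epithelial cell line grown with serum, EGF, hydrocortisone, cholera toxin and insulin. Both genotypes were single-cell derived clones from CRISPR/Cas9 editing: JUNB WT (clones 27 and 2), and JUNB knock-out in the labels, named mut in the study and here (clones 1 and 65). JUNB pairs with other Jun, Fos or ATF proteins to form AP-1 dimers that bind DNA. The study describes the edited clones as lacking normal JUNB protein but making little of a smaller polypeptide that an anti-JUNB antibody detects. Each genotype was sampled after solvent (BSA in PBS) and after 6, 24 and 72 h of TGFβ1 at 5 ng/ml, which gave 8 groups of 4 libraries (2 clones, each with 2 replications). A library is named by clone and replication, as in 27-2, and the 4 libraries of a clone and replication form a series. The labels give the solvent libraries as 0 h. In the study's set-up the controls had solvent throughout and all dishes were harvested at one time after seeding, so the groups shared their time in culture. With 2 clones per genotype, differences between clones and the effect of the edit are hard to separate.

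Fibronectin is a secreted glycoprotein that cells assemble into fibrils through integrins, and its rise is a customary sign of epithelial-mesenchymal transition (EMT). Fibrillin-1 (FBN1) builds the microfibrils that hold latent TGFβ complexes in the matrix. Matricellular proteins are secreted into the matrix but act mainly as modulators of cell adhesion and signalling: tenascin-C (TNC) alters adhesion to fibronectin, thrombospondin-1 (THBS1) can activate latent TGFβ, SPARC binds collagen, and periostin (POSTN) and TGFBI are related fasciclin-domain proteins that bind collagen, fibronectin and integrins. TGFBI takes its name from its induction by TGFβ.

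Promoter letters are shown for 3 members: FN1 and POSTN because they held the only matches to the AP-1 or CRE letters searched, and TGFBI because its change from solvent was called different between genotypes at 24 and 72 h. The stretches run from base -250 to base -81 relative to the annotated start in RefSeq (GRCh38.p14), and capitals mark the motif matches. FN1 is from chr2:215436149-215436318 (minus strand), POSTN from chr13:37598849-37599018 (minus strand) and TGFBI from chr5:136028738-136028907 (plus strand).
FN1: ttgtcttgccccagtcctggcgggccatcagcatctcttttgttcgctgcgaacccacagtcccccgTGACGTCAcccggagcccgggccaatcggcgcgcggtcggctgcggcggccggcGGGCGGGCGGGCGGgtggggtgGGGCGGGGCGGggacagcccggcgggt
POSTN: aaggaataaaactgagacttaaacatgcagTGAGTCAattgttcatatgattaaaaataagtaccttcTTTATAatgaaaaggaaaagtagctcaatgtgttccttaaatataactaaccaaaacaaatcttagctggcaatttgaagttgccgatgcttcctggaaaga
TGFBI: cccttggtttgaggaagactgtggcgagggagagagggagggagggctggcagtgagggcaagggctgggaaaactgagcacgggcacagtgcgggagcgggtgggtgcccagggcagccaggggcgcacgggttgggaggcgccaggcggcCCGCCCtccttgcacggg
Over the RefSeq promoter windows (250 bases before to 50 after each start) of all 7 members, both strands were searched. The AP-1 letters TGANTCA were in 7.71% of 35116 promoters and, among the members, in POSTN at -220. The CRE letters TGACGTCA, which are bound by CREB and ATF factors and some AP-1 dimers, were in 1.85% of promoters and in FN1 at -183. The SMAD palindrome GTCTAGAC was in 0.202% of promoters and in no member. The GC box GGGCGG was in 45.0% of promoters and in FN1, TNC, THBS1 and TGFBI. The TATA letters TATAAA were in 11.5% of promoters and in POSTN, at -182 and -29. A match is a stretch of letters and not a measured binding site.

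The libraries held 39702412 to 54651906 counts. Levels are CPM, each gene's counts scaled to the library total, and 3 counts, the least read here as above 0, were worth 0.0549 to 0.0756 CPM. The basal markers KRT5, KRT14, KRT17, TP63 and ITGA6 summed to 6772 to 14518 CPM, and the range was higher in mut solvent (10453 to 12282 CPM) than in WT solvent (7698 to 9578 CPM). These markers did not move together: in mut against WT solvent KRT17 was called higher, ITGA6 lower, and KRT5, KRT14 and TP63 were not called. ITGA6 was also called lower in mut at 6, 24 and 72 h. The 4 fibroblast markers measured (PDGFRA, THY1, DCN, COL3A1) summed to 4.59 to 33.9 CPM, with 5.58 to 16.3 CPM in WT and 25.9 to 33.9 CPM in mut cells at 72 h, and PTPRC, the leukocyte marker, stayed at or below 0.0498 CPM. DCN made up most of that sum at 72 h (10.2 CPM on average in WT and 29.4 CPM in mut), while PDGFRA was called lower in mut (0.980 and 0.372 CPM). The epithelial markers CDH1, EPCAM, KRT8 and KRT18 summed to 523.7 to 790.5 CPM in WT solvent and 796.6 to 932.0 CPM in mut solvent, and to 425.0 to 667.6 and 569.6 to 628.9 CPM at 72 h. Of the 4, EPCAM changed by -1.66 ± 0.23 in WT and -0.97 ± 0.19 in mut at 72 h, CDH1 was also called lower in both, KRT18 lower in mut and KRT8 higher in WT. The part of these marker differences in the members' results was not tested. JUNB transcripts were present in every library: 89.7 to 297.3 CPM in WT and 69.2 to 518.0 CPM in mut. No difference between genotypes was called at any time, but the 2 mut clones lay apart. In solvent clone 1 had 69.2 and 77.5 CPM and clone 65 had 127.7 and 172.0 CPM. The WT solvent libraries had 89.7 to 116.8 CPM. At 6 h clone 1 had 202.0 and 129.2 CPM and clone 65 had 436.2 and 493.5 CPM. The WT 6 h libraries had 186.8 to 276.0 CPM. Transcript level thus gives no check of the edit. Series WT 27-2 and the solvent library of mut 1-2 stood apart for several members, and where leaving out both series changed a member's call, the value without them is given as well. They are called the raised series below, although at 6 h mut 1-2 was the lowest mut library for all members but SPARC. The series were picked with the members' values known, so these fits show dependence on them and are no independent support. The fits hold 3 libraries per group, with clones 27 and 1 present by replication 1 only. Scaling by library size moved the median of all genes by -0.19 on the log2 scale at 72 h in WT, against -0.03 with TMM factors, and of the WT calls at 72 h 26.5% were higher with library size and 48.0% with TMM factors. For mut against WT at 72 h these were 66.3% and 51.1%, and for the 72 h interaction 76.3% and 52.2%. The shares of all genes called higher or lower, given below with library size, thus depend on the scaling. The members' calls against solvent did not change under TMM.

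Together the 7 transcripts took a growing share of all counts. In WT solvent libraries they made up 0.163% to 0.468% of counts, and at 72 h 2.51% to 3.68%. In mut cells the share went from 0.191% to 0.445% in solvent to 1.06% to 1.86% at 72 h, so every mut library at 72 h lay below every WT library. FN1 and TGFBI made up most of this sum, with means at 72 h of 12905 and 13972 CPM in WT and 6595 and 4218 CPM in mut. Taken singly, FN1, POSTN and THBS1 overlapped between genotypes at 72 h, and THBS1 had the higher mean in mut. In these bulk samples, fewer cells with a transcript and less of it per cell cannot be told apart. Per kb of exon, TGFBI stood first in WT solvent with 155.9 ± 40.1 CPM per kb (SD, n = 4), ahead of THBS1 with 72.2 ± 48.2, FN1 with 43.1 ± 31.8 and SPARC with 23.6 ± 7.0 CPM per kb, and the libraries of each neighbouring pair overlapped. TNC (2.64 ± 0.745), POSTN (0.944 ± 1.75) and FBN1 (0.214 ± 0.0801 CPM per kb) came last, and no library of these 3 reached a SPARC value. At 72 h in WT the order was TGFBI (1811 ± 196.5 CPM per kb), FN1 (749.5 ± 219.0), THBS1 (261.6 ± 72.5), POSTN (93.9 ± 45.7), SPARC (52.1 ± 12.7), TNC (13.9 ± 3.73) and FBN1 (2.23 ± 0.800), and only POSTN and SPARC overlapped as neighbours. At 72 h in mut cells the order was the same, but TGFBI (546.6 ± 119.1 CPM per kb), FN1 (383.1 ± 132.3) and THBS1 (296.5 ± 64.0) overlapped in turn.

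**Figure D1:**
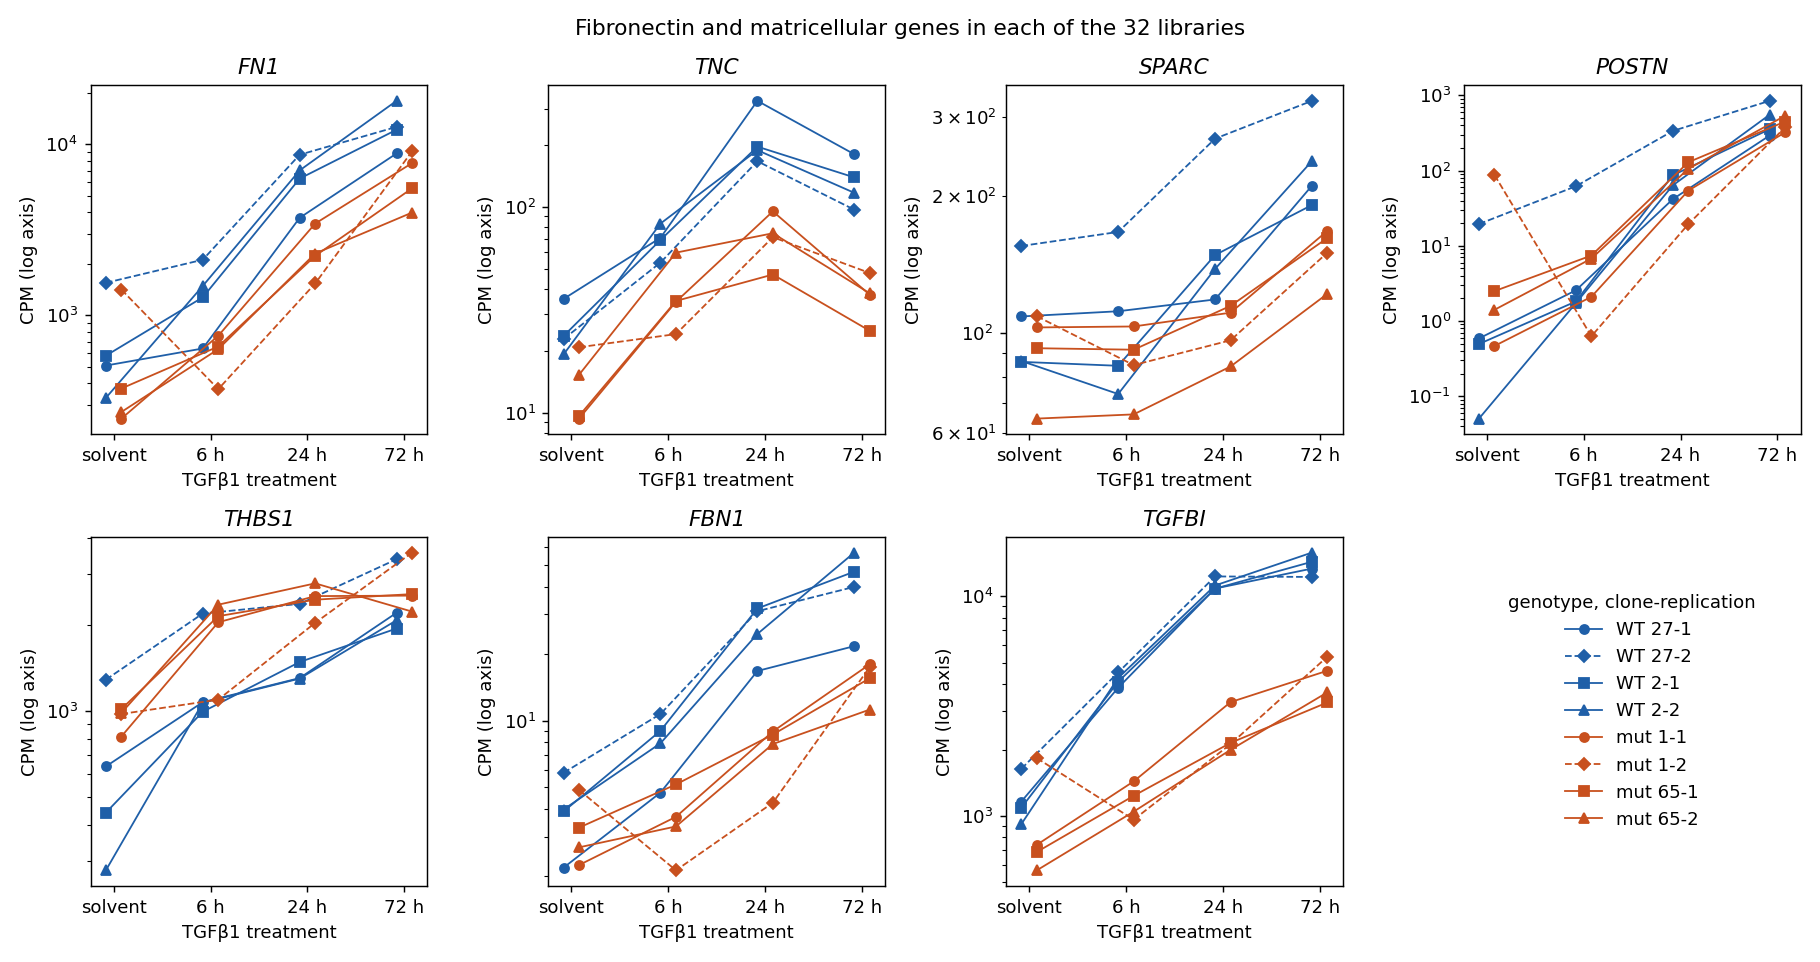
CPM on a log axis (different in each panel) for the 7 genes in solvent and after 6, 24 and 72 h of TGFβ1; each line is 1 series, blue for WT and orange for mut, and diamonds with dashed lines are WT 27-2 and mut 1-2. The WT TGFBI lines run together and rise to 12269 to 15840 CPM while the mut lines end at 3293 to 5327 CPM. TNC turns down after 24 h in both genotypes. The solvent point of mut 1-2 lies above that of 6 h for FN1, POSTN, FBN1, TGFBI and SPARC.

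FN1 (ENSG00000115414, chr2:215360440-215436073, minus strand) was higher than solvent at 24 and 72 h in both genotypes, and lower in mut than in WT cells at 24 h. In WT solvent the libraries 2-1, 2-2, 27-1 and 27-2 had 580.1, 328.5, 507.9 and 1548 CPM, and after 6 h 1273, 1484, 639.2 and 2112 CPM. At 24 h they had 6301, 7038, 3715 and 8688 CPM, and at 72 h 12169, 17963, 8840 and 12648 CPM. All WT libraries at 24 and 72 h thus lay above all WT solvent libraries. The changes from solvent were 3.31 ± 0.47 at 24 h (log2 fold change ± SE from limma-voom, adjusted p = 9.42e-07) and 4.33 ± 0.47 at 72 h (adjusted p = 1.65e-08). The 6 h value, 1.02 ± 0.45, did not pass (adjusted p = 0.125), although it was called without both raised series (1.21 ± 0.30, adjusted p = 0.00858).

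In mut cells FN1 had 248.6, 1413, 372.8 and 271.7 CPM in solvent libraries 1-1, 1-2, 65-1 and 65-2, and 758.6, 369.7, 656.4 and 633.5 CPM after 6 h. At 24 h it had 3437, 1534, 2225 and 2297 CPM, and at 72 h 7766, 9096, 5529 and 3988 CPM. Library 1-2 was the highest in solvent and the lowest at 6 and 24 h. At 6 h the change from solvent was 0.43 ± 0.44 (adjusted p = 0.625), and without both raised series it was 1.22 ± 0.30 and called (adjusted p = 0.0137), as in WT. The later changes were 2.39 ± 0.45 at 24 h (adjusted p = 0.000367) and 3.85 ± 0.47 at 72 h (adjusted p = 6.61e-07). Between genotypes FN1 was lower in mut by -1.44 ± 0.48 at 24 h (adjusted p = 0.0189), where no mut library reached the lowest WT library. This call was lost without the WT 24 h library 27-2 or the mut 24 h library 1-2, with adjusted p of up to 0.0660. At 72 h the difference was -1.0 ± 0.49 (adjusted p = 0.110) and the groups overlapped, but without both raised series it was -1.17 ± 0.33 (adjusted p = 0.00766).

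FBN1 (ENSG00000166147, chr15:48408313-48645721, minus strand) was the member of lowest level per length, and it was lower in mut than in WT cells at 24 and 72 h. Libraries 2-1, 2-2, 27-1 and 27-2 had 3.90, 3.98, 2.18 and 5.82 CPM in WT solvent, 31.9, 24.5, 16.7 and 31.0 CPM at 24 h, and 46.7, 56.9, 21.6 and 39.9 CPM at 72 h. Libraries 1-1, 1-2, 65-1 and 65-2 had 2.24, 4.87, 3.30 and 2.69 CPM in mut solvent, 8.93, 4.27, 8.65 and 7.84 CPM at 24 h, and 17.9, 17.4, 15.5 and 11.2 CPM at 72 h. In solvent the genotypes overlapped, as they did at 6 h (4.74 to 10.7 CPM in WT and 2.12 to 5.16 CPM in mut), whereas at 24 and 72 h every mut library was below every WT library. In WT the 6 h change of FBN1 was 1.08 ± 0.45 and did not pass (adjusted p = 0.0983), but it was called with series fitted as replicate block (1.04 ± 0.27, adjusted p = 0.00491) and by edgeR and DESeq2. The later WT changes were 2.76 ± 0.40 at 24 h (adjusted p = 1.49e-06) and 3.40 ± 0.39 at 72 h (adjusted p = 4.86e-08). In mut the 24 h value of 1.19 ± 0.47 did not pass (adjusted p = 0.0617; with series fitted as replicate block 1.22 ± 0.28, adjusted p = 0.00136; without both raised series 1.64 ± 0.53, adjusted p = 0.0300), and 72 h gave 2.30 ± 0.42 (adjusted p = 0.000190). The mut minus WT difference was -0.24 ± 0.52 in solvent (adjusted p = 0.822), -1.80 ± 0.33 at 24 h (adjusted p = 9.12e-05) and -1.34 ± 0.25 at 72 h (adjusted p = 0.000123).

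TNC (ENSG00000041982, chr9:115019575-115118207, minus strand, overlapped by DELEC1 on the other strand) had its highest mean at 24 h in both genotypes, while the other 6 had theirs at 72 h. In WT the libraries 2-1, 2-2, 27-1 and 27-2 had 23.6, 19.2, 35.7 and 22.8 CPM with solvent, 69.0, 82.9, 70.7 and 53.6 CPM at 6 h, 195.9, 188.3, 326.9 and 166.4 CPM at 24 h and 138.9, 116.9, 179.9 and 96.8 CPM at 72 h. In mut the libraries 1-1, 1-2, 65-1 and 65-2 had 9.37, 20.8, 9.66 and 15.3 CPM with solvent, 34.6, 24.1, 34.9 and 59.9 CPM at 6 h, 95.0, 71.2, 46.9 and 74.4 CPM at 24 h and 37.4, 47.7, 25.0 and 38.0 CPM at 72 h. Each of the 8 series was lower at 72 h than at 24 h. TNC was the only member called at 6 h in both genotypes, with 1.46 ± 0.29 in WT (adjusted p = 0.000712) and 1.5 ± 0.34 in mut (adjusted p = 0.00748). The mut call was lost without the mut 6 h library 65-2 (adjusted p = 0.0514). From 24 to 72 h the change was -0.71 ± 0.24 in WT (adjusted p = 0.0622) and -0.94 ± 0.27 in mut (adjusted p = 0.0711), and with series fitted as replicate block both passed (adjusted p = 0.00416 and 0.00284).

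TNC was lower in mut than in WT cells from 6 h on. As a share of the WT mean, the mut mean went from 54.4% in solvent through 55.6% and 32.8% to 27.8% after 72 h, and the libraries of the 2 genotypes did not overlap at 24 and 72 h. The log2 differences were -0.94 ± 0.35 in solvent (adjusted p = 0.0791), -0.89 ± 0.27 at 6 h (adjusted p = 0.0169), -1.60 ± 0.24 at 24 h (adjusted p = 1.08e-05) and -1.83 ± 0.26 at 72 h (adjusted p = 2.96e-06). TNC was thus already lower on average in mut solvent cells, though not called there. The 6 h call was lost without the WT 6 h library 2-2 or the mut 6 h library 1-2 (adjusted p of up to 0.0770).

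THBS1 (ENSG00000137801, chr15:39581079-39599466, plus strand, overlapped by FSIP1 on the other strand) had a higher mean in mut than in WT cells at each time. In WT the libraries 2-1, 2-2, 27-1 and 27-2 had 441.4, 277.7, 639.7 and 1284 CPM with solvent, 992.8, 1067, 1072 and 2185 CPM at 6 h and 1937, 2070, 2198 and 3379 CPM at 72 h. In mut the libraries 1-1, 1-2, 65-1 and 65-2 had 813.6, 975.0, 1014 and 983.4 CPM with solvent, 2037, 1094, 2139 and 2346 CPM at 6 h and 2523, 3565, 2554 and 2219 CPM at 72 h. At 24 h the WT libraries had 1480, 1296, 1301 and 2361 CPM and the mut libraries 2513, 2027, 2442 and 2784 CPM. WT 27-2 was the highest WT library at each time, and mut solvent lay above the other 3 WT solvent libraries. THBS1 rose in WT by 1.15 ± 0.31 at 6 h (adjusted p = 0.0101) and 2.05 ± 0.31 at 72 h (adjusted p = 3.96e-06). In mut the 6 h change of 0.95 ± 0.32 did not pass (adjusted p = 0.0631; 0.00175 with series fitted as replicate block and 0.000134 without both raised series), and the 72 h change was 1.5 ± 0.32 (adjusted p = 0.000879). The mut minus WT differences, from solvent to 72 h, were 0.74 ± 0.31, 0.54 ± 0.32, 0.64 ± 0.32 and 0.19 ± 0.32, and none was called (adjusted p of 0.117 to 0.668). Without both raised series the solvent, 6 h and 24 h differences became 1.12 ± 0.17, 1.06 ± 0.18 and 0.92 ± 0.18 and were called (adjusted p = 0.000146, 0.000239 and 0.000561). That fit took out WT 27-2, the highest WT library at each time. It also took out mut 1-2, which for THBS1 was not raised in solvent (975.0 CPM) and was the lowest mut library at 6 and 24 h. The WT 6 h call was lost when the WT solvent library 2-2 or the WT 6 h library 27-2 was left out (adjusted p of up to 0.0701), with the compared groups only (adjusted p = 0.117) and with clones summed (adjusted p = 0.0551).

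SPARC (ENSG00000113140, chr5:151661096-151686975, minus strand, overlapped by CLMAT3 on the other strand) had small changes, and its treated libraries overlapped solvent until 72 h. In WT the libraries 2-1, 2-2, 27-1 and 27-2 had 86.2, 86.6, 108.6 and 155.4 CPM in solvent and 191.4, 239.4, 211.2 and 325.1 CPM at 72 h. In mut the libraries 1-1, 1-2, 65-1 and 65-2 had 102.7, 108.7, 92.4 and 64.6 CPM in solvent and 167.9, 150.3, 161.9 and 121.9 CPM at 72 h. At 24 h the WT libraries had 148.4, 138.3, 118.4 and 268.2 CPM and the mut libraries 110.7, 96.2, 114.6 and 84.2 CPM. The mut libraries thus lay just below the lowest WT library, and WT 27-2 far above the other WT libraries. At 6 h the WT change was -0.03 ± 0.24 and the mut change -0.08 ± 0.24 (adjusted p = 0.952 and 0.886), values with no clear direction. At 24 h SPARC was higher in WT by 0.59 ± 0.24 (adjusted p = 0.0389), a call lost without any of the WT solvent libraries 2-1, 2-2 and 27-1 or the WT 24 h library 27-2 (adjusted p of up to 0.229), with the compared groups only, with clones summed (adjusted p = 0.0575) and without series mut 1-2. At 72 h it rose by 1.16 ± 0.24 in WT (adjusted p = 0.000179) and by 0.73 ± 0.24 in mut (adjusted p = 0.0271), the latter lost in 4 of 8 fits that left out a library (mut solvent 65-2 or mut 72 h 1-1, 1-2 or 65-1, adjusted p of up to 0.119). In mut the SPARC difference from WT was -0.67 ± 0.24 at 24 h (adjusted p = 0.0299) and -0.67 ± 0.24 at 72 h (adjusted p = 0.0250), with no overlap between genotypes. The 24 h call was lost without the WT 24 h library 27-2, the mut 24 h library 1-2 or the mut 24 h library 65-2, and the 72 h call without the WT 72 h library 27-2 or the mut 72 h library 65-2 (adjusted p of up to 0.174 and 0.106). Without both raised series the 24 h difference was -0.39 ± 0.19 (adjusted p = 0.120).

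POSTN (ENSG00000133110, chr13:37562583-37598844, minus strand) went from the edge of detection to 293.2 to 847.9 CPM at 72 h, and its series were far apart in solvent. In WT the libraries 2-1, 2-2, 27-1 and 27-2 had 0.495, 0.0504, 0.587 and 19.5 CPM with solvent, 1.82, 1.73, 2.56 and 62.0 CPM at 6 h, 86.7, 63.7, 41.7 and 337.2 CPM at 24 h and 355.8, 554.6, 293.2 and 847.9 CPM at 72 h. The 0.0504 CPM of 2-2 were 2 counts. In mut the libraries 1-1, 1-2, 65-1 and 65-2 had 0.466, 87.5, 2.50 and 1.41 CPM with solvent, 2.10, 0.627, 7.43 and 6.76 CPM at 6 h, 54.2, 19.4, 129.3 and 105.8 CPM at 24 h and 323.2, 377.3, 449.6 and 537.1 CPM at 72 h. At 72 h the genotypes overlapped. POSTN was the only member still called higher between 24 and 72 h in both genotypes, by 2.33 ± 0.60 in WT (adjusted p = 0.0153) and 2.76 ± 0.61 in mut (adjusted p = 0.0213). The WT step was lost without any of the libraries 2-2 or 27-1 at 24 h or 27-2 at 72 h, and the mut step without any of 1-1 and 1-2 at 24 h or 1-1 and 65-1 at 72 h (adjusted p of up to 0.0820 and 0.102). Both steps had no call with edgeR (mut adjusted p = 0.308) or DESeq2 (WT adjusted p = 0.376).

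The difference between genotypes in POSTN did not pass at any time. From solvent to 72 h the values were 2.12 ± 2.54, -0.63 ± 1.59, -0.61 ± 0.62 and -0.18 ± 0.58 (adjusted p of 0.472 to 0.834). Without both raised series the sign at 24 and 72 h was the opposite, 0.57 ± 0.31 and 0.14 ± 0.28 (adjusted p = 0.172 and 0.717). The size of the fitted rise also turned on the solvent libraries: at 72 h it was 9.26 ± 2.31 in WT (adjusted p = 0.00136), but 7.17 ± 1.41 with series fitted as replicate block and 6.79 to 10.71 over all settings tried, each of them called. In WT at 24 h, 6.93 ± 2.31 (adjusted p = 0.0130) lost its call without the WT solvent library 27-2 (adjusted p = 0.0717). In mut the change was 4.20 ± 1.22 at 24 h (adjusted p = 0.0126) and 6.96 ± 1.21 at 72 h (adjusted p = 8.63e-05; 8.48 ± 0.92 without both raised series). The mut 24 h call was lost with edgeR and DESeq2 (1.84 in both, adjusted p of up to 0.351) and with clones summed (2.90 ± 1.24, adjusted p = 0.133), and without both raised series it was 6.23 ± 0.92.

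TGFBI (ENSG00000120708, chr5:136028988-136063818, plus strand) was the only member whose change from solvent differed between genotypes in limma-voom on all libraries without a block. In WT the libraries 2-1, 2-2, 27-1 and 27-2 had 1091, 918.5, 1164 and 1641 CPM with solvent, 4091, 4256, 3840 and 4506 CPM at 6 h, 10851, 11219, 10865 and 12334 CPM at 24 h and 14386, 15840, 13394 and 12269 CPM at 72 h. In mut the libraries 1-1, 1-2, 65-1 and 65-2 had 740.0, 1837, 686.4 and 566.2 CPM with solvent, 1439, 963.1, 1237 and 1048 CPM at 6 h, 3303, 2127, 2155 and 2004 CPM at 24 h and 4592, 5327, 3293 and 3662 CPM at 72 h. From 6 h on every mut library was below every WT library, and the mut mean was 28.1%, 21.2% and 30.2% of the WT mean at the 3 times. The mut libraries at 72 h, after the longest treatment, spanned the levels that WT libraries had at 6 h.

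In WT TGFBI rose by 1.82 ± 0.24, 3.26 ± 0.24 and 3.56 ± 0.24 at the successive times (adjusted p = 3.83e-06, 2.63e-11 and 7.12e-12). In mut the values were 0.44 ± 0.23 at 6 h (adjusted p = 0.255), 1.46 ± 0.23 at 24 h (adjusted p = 4.71e-05) and 2.28 ± 0.24 at 72 h (adjusted p = 6.39e-08). Leaving out the mut solvent library 1-2 brought the mut 6 h value past the threshold (adjusted p = 0.00909), as did leaving out both raised series (0.90 ± 0.15, adjusted p = 0.000614). The difference between genotypes was -0.46 ± 0.23 in solvent (adjusted p = 0.198), -1.85 ± 0.24 at 6 h (adjusted p = 1.49e-06), -2.27 ± 0.24 at 24 h (adjusted p = 4.35e-08) and -1.75 ± 0.25 at 72 h (adjusted p = 2.54e-06). The solvent difference, without both raised series, was -0.67 ± 0.15 and was called (adjusted p = 0.00550). The test of the genotype by treatment interaction, which asks whether the change from solvent itself differed, gave -1.38 ± 0.33 at 6 h (adjusted p = 0.156; 0.0224 with series fitted as replicate block), -1.81 ± 0.33 at 24 h (adjusted p = 0.00132) and -1.29 ± 0.34 at 72 h (adjusted p = 0.0120). The 24 and 72 h interactions were called in each fit that left out a library, and the 72 h one was not with clones summed (-1.34 ± 0.38, adjusted p = 0.0659) or with the compared groups only (adjusted p = 0.0525).

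Counted over the members, the WT response was broad by 24 h. In WT, 3 of 7 were called higher at 6 h (TNC, THBS1, TGFBI), against 5.13% of all 14865 genes, and all 7 at 24 h and 72 h, against 14.1% and 13.9%. The median change of the 7 was 1.15, 3.09 and 3.40, beside -0.08, -0.18 and -0.19 for all genes. In mut, 1 of 7 was called at 6 h (TNC; 2.06% of all genes), 5 at 24 h (all but SPARC and FBN1; 6.75%) and all 7 at 72 h (7.81%), with medians of 0.43, 1.46 and 2.28. No member was called lower than solvent. With series fitted as replicate block the WT 6 h count was 4, with FBN1 added, against 7.78% of all genes, and the mut 6 h count was 2, TNC and THBS1, and 4.92% of all genes were then called higher. The 3 times of a genotype share its solvent libraries. The members were chosen with earlier results of these data known, so these counts describe them and do not test them against other genes.

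**Figure D2:**
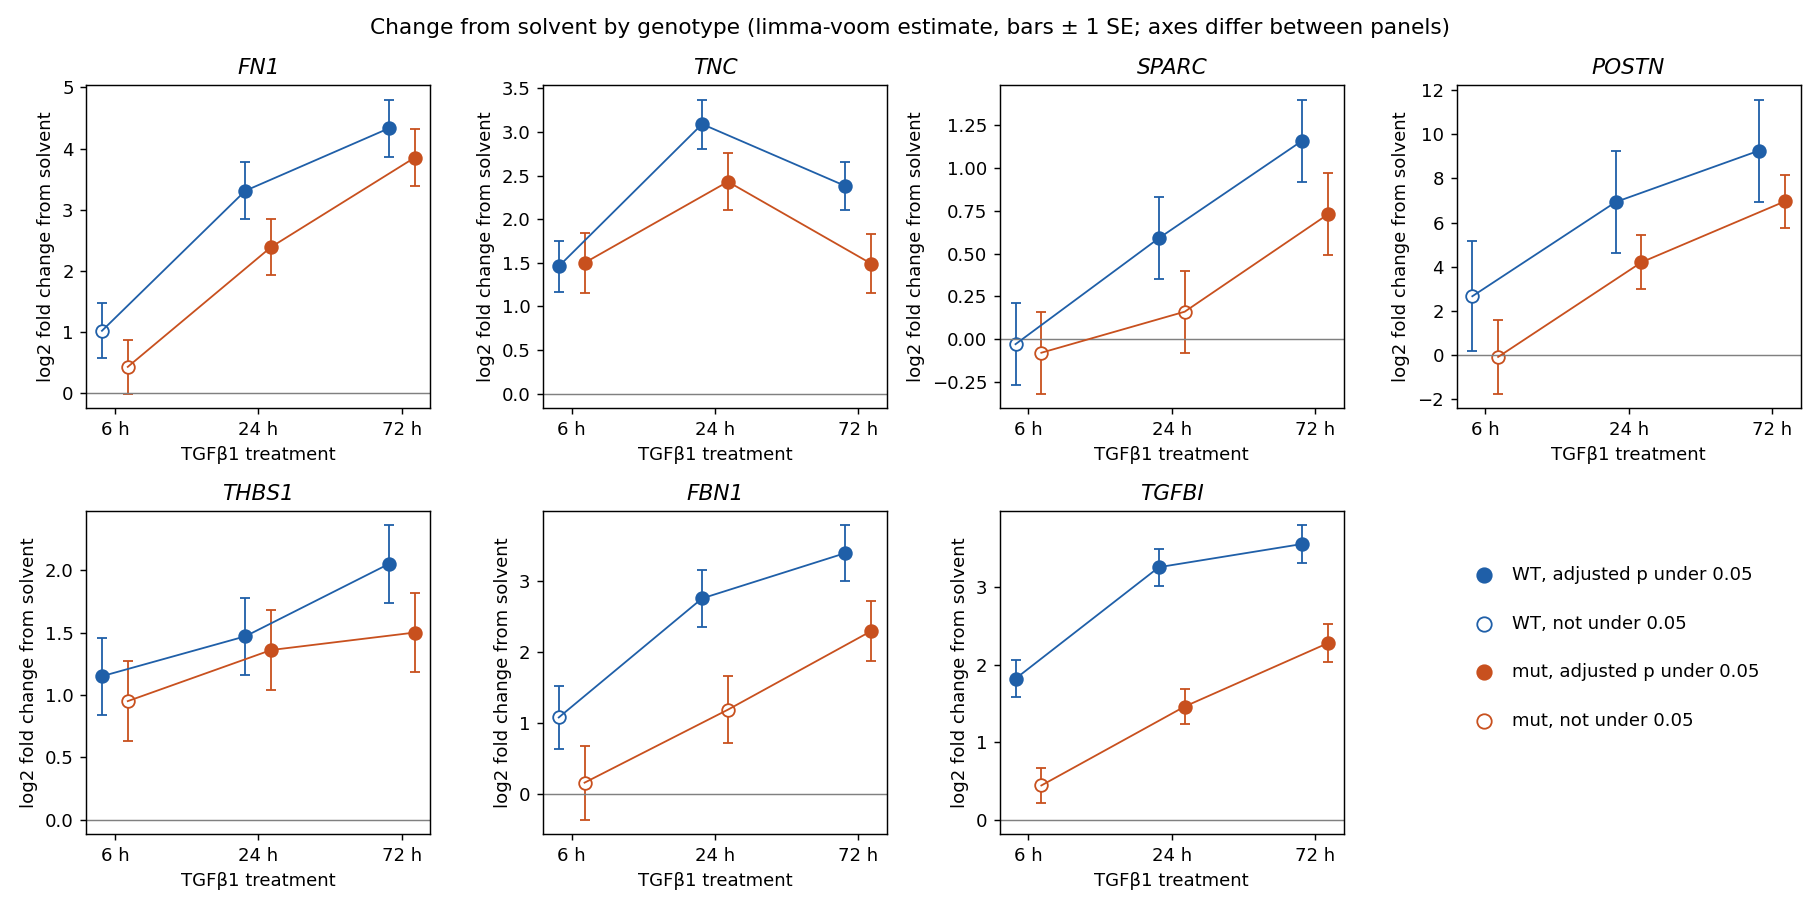
log2 fold change from solvent of each gene at 6, 24 and 72 h (limma-voom, bars ± 1 SE, n = 4 libraries per group), blue for WT and orange for mut, filled where the adjusted p was under 0.05; vertical scales differ between panels. The WT estimate lies above the mut estimate at each time except for TNC at 6 h (1.46 and 1.5), the gap is widest relative to its error for TGFBI, and FBN1 is still an open point in mut at 24 h.

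The steps between treatment times were compared as well. From 6 to 24 h in WT, FN1 (2.29 ± 0.47), TNC (1.63 ± 0.24), POSTN (4.28 ± 1.10), FBN1 (1.68 ± 0.31) and TGFBI (1.44 ± 0.25) were called higher, 5 of 7 against 7.16% of all genes (adjusted p of at most 0.00396), though edgeR and DESeq2 did not call POSTN (adjusted p of up to 0.0693). SPARC, at 0.63 ± 0.24, did not pass (adjusted p = 0.0502), but with series fitted as replicate block it did (0.62 ± 0.10, adjusted p = 2.89e-05), which made 6 of 7 against 11.0% of all genes, and it did without both raised series (adjusted p = 0.0220). In mut, FN1 (1.96 ± 0.46, adjusted p = 0.0173) and TGFBI (1.02 ± 0.23, adjusted p = 0.0159) were called, 2 of 7 against 1.30%, and with series fitted as replicate block 5 of 7 (FN1, TNC, POSTN, FBN1, TGFBI) against 4.30%. Without both raised series POSTN was called with them (4.19 ± 0.54, adjusted p = 0.000177). The mut FN1 step was lost without any of the libraries 1-2 at 6 h or 1-1, 65-1 and 65-2 at 24 h, and the TGFBI step without 1-2 at 6 h or 1-1 at 24 h (adjusted p of up to 0.109 and 0.114). THBS1 was not called in either genotype over this step, with 0.31 ± 0.32 in WT and 0.41 ± 0.32 in mut (adjusted p = 0.509 and 0.553).

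From 24 to 72 h only POSTN was called higher, 1 of 7 in WT against 4.68% of all genes and 1 of 7 in mut against 0.693%. TGFBI was not called over this step in WT, with 0.30 ± 0.25 (adjusted p = 0.534), and in mut its step was 0.82 ± 0.24 (adjusted p = 0.0835). The replicate block called more of this step. In WT it called SPARC, POSTN, THBS1 and FBN1 higher and TNC lower, when 9.12% of all genes were called higher and 8.29% lower. In mut it called FN1, SPARC, POSTN, FBN1 and TGFBI higher and TNC lower, against 4.66% and 4.78%. Without both raised series FN1 (1.18 ± 0.33), SPARC (0.67 ± 0.18) and THBS1 (0.61 ± 0.18) were called beside POSTN in WT (adjusted p of 0.0311, 0.0282 and 0.0382), and TGFBI in mut (0.65 ± 0.16, adjusted p = 0.0488). For that fit the share of all genes called was not computed.

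Between genotypes, in limma-voom on all libraries, each member call was lower in mut. Without series WT 27-2 and mut 1-2 THBS1 was called higher in mut in solvent and at 6 and 24 h, with the values and the limit given above. In solvent 0 of 7 was called by limma-voom (6.32% of all genes were lower), and edgeR and DESeq2 each called TNC. The unadjusted p in limma-voom was 0.0127 for TNC (lower) and 0.0231 for THBS1 (higher). The share of all genes at such an unadjusted p was not computed. At 6 h 2 of 7 were lower (TNC, TGFBI; 10.0% of all genes), at 24 h 5 of 7 (all but POSTN and THBS1; 12.2%) and at 72 h 4 of 7 (TNC, SPARC, FBN1, TGFBI; 13.2%). The median difference of the 7 was -0.24, -0.89, -1.44 and -1.0 from solvent to 72 h, beside -0.01 to 0.10 for all genes. Without the WT library 27-2 or the mut library 1-2 at 24 h the count there was 3 (TNC, FBN1, TGFBI). When the replications of a clone were summed, leaving 2 clones per group, TNC, FBN1 and TGFBI were called at 6, 24 and 72 h, FN1 at 24 h, and SPARC at no time (adjusted p = 0.0575 at 24 h and 0.0511 at 72 h). The share of all genes called was not computed with clones summed or with libraries or series left out.

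**Figure D3:**
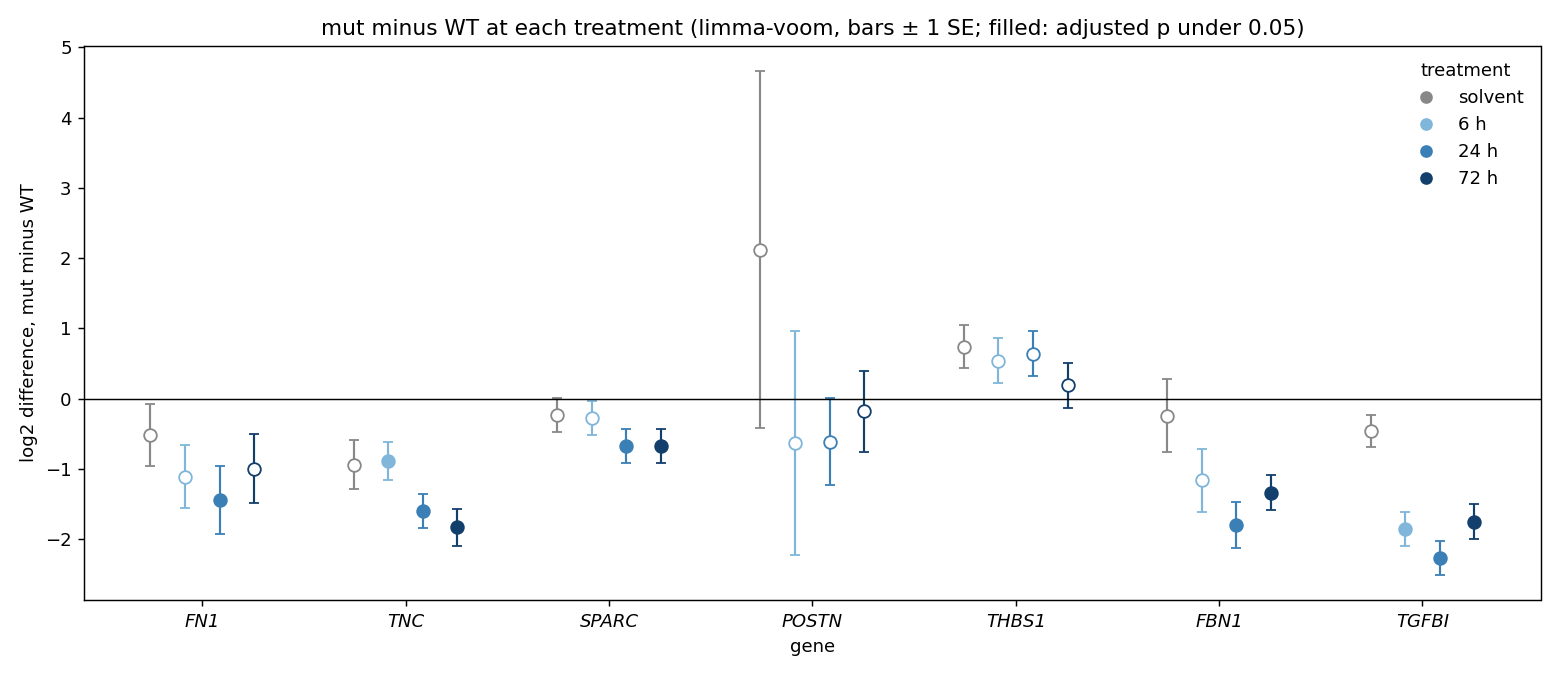
log2 difference between mut and WT (limma-voom, bars ± 1 SE, 4 libraries per group) for each gene in solvent and after 6, 24 and 72 h of TGFβ1, filled where the adjusted p was under 0.05. At 24 h TGFBI, FBN1 and TNC lie furthest below 0, THBS1 lies above 0 at each time, and the POSTN bar in solvent is the longest (2.12 ± 2.54).

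The interaction was called for fewer members than the difference itself. At 6 h limma-voom called 0 of 7 (0.0673% of all genes were called lower), and edgeR and DESeq2 called 0. The unadjusted 6 h p of TGFBI in limma-voom was 0.000242, and no share of all genes at such a p was computed. At 24 h limma-voom called TGFBI only (1.93%), and at 72 h TGFBI only (2.92%). With series fitted as replicate block TGFBI was called at 6 h (0.242% of all genes lower), SPARC, FBN1 and TGFBI at 24 h (4.64%) and TNC, SPARC, FBN1 and TGFBI at 72 h (6.33%). The blocked FBN1 values were -1.51 ± 0.37 at 24 h (adjusted p = 0.00515) and -1.05 ± 0.35 at 72 h (adjusted p = 0.0301), and the blocked SPARC values -0.44 ± 0.15 and -0.43 ± 0.15 (adjusted p = 0.0390 and 0.0324). TNC had -0.92 ± 0.32 at 72 h (adjusted p = 0.0375). With clones summed these added calls were absent: the adjusted p was 0.836 for TGFBI at 6 h, 0.118 and 0.193 for FBN1 and 0.537 and 0.492 for SPARC at 24 and 72 h, and 0.168 for TNC at 72 h. Without a block, edgeR and DESeq2 called FBN1 at 24 h (-1.62 in both, adjusted p of up to 0.0335), and THBS1 was called at 72 h without both raised series (-0.89 ± 0.25, adjusted p = 0.0207; -0.55 ± 0.45 with them, adjusted p = 0.469). For FN1 and POSTN the interaction was not called in either fit, at -0.92 ± 0.65 and -2.73 ± 2.61 at 24 h (adjusted p = 0.430 and 0.589). Compared by series, the mut changes of FBN1 and TGFBI did not overlap the WT changes at 6 and 24 h. At 72 h those of TNC, SPARC and TGFBI did not. TNC and SPARC overlapped at 6 and 24 h, and FBN1 at 72 h. The share of all genes without such overlap was not computed.

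The raised baselines did not involve the members equally. In WT 27-2 solvent, FN1, POSTN, THBS1, SPARC, FBN1 and TGFBI were each the highest of the 4 WT solvent libraries and TNC was not (22.8 CPM, between 19.2 and 35.7). In mut 1-2 solvent, FN1, POSTN, SPARC, FBN1, TGFBI and TNC were the highest of the 4 mut solvent libraries, whereas THBS1 (975.0 CPM) lay between 813.6 and 1014 CPM. The same mut solvent library had 136.5 CPM of PMEPA1, a feedback inhibitor of the TGFβ pathway, against 66.1 to 73.4 CPM in the other 3. At 6 h library 1-2 was instead the lowest of the mut libraries for PMEPA1 (187.9 CPM against 417.6 to 465.5 CPM). It was also the lowest for FN1 (369.7 CPM against 633.5 to 758.6), POSTN (0.627 CPM against 2.10 to 7.43) and TGFBI (963.1 CPM against 1048 to 1439). The same held for THBS1 (1094 CPM against 2037 to 2346), TNC (24.1 CPM against 34.6 to 59.9) and FBN1 (2.12 CPM against 3.34 to 5.16). For SPARC it was not the lowest (84.8 CPM, between 66.0 and 103.2). The part of these libraries in the results was measured by leaving both series out, as given above, and its cause was not tested. Within mut series 1-2 POSTN changed by -6.29 at 6 h and 2.10 at 72 h on the log2(CPM + 0.5) scale, while the other mut series ended at up to 8.39.

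The members were also compared with each other across the 32 libraries. Pearson's r of log2(CPM + 0.5), given as a description since libraries share clones and treatment, was 0.95 between FN1 and FBN1, 0.94 between FBN1 and TGFBI, 0.92 between FN1 and POSTN and 0.91 between FN1 and TGFBI. TNC and THBS1 were the least alike, with 0.41. With each group's mean taken out, FN1 kept r of 0.84 with TGFBI, 0.79 with POSTN and 0.78 with FBN1, while TNC had 0.17 with FN1, -0.17 with FBN1 and -0.41 with SPARC. So libraries that stood high within their group for FN1 tended to stand high for POSTN, FBN1 and TGFBI, and not for TNC. The r of these deviations was 0.62 between FN1 and THBS1 and 0.50 between FN1 and SPARC. Series WT 27-2 and mut 1-2 are part of these values, and r of the deviations was not computed without them.

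**Figure D4:**
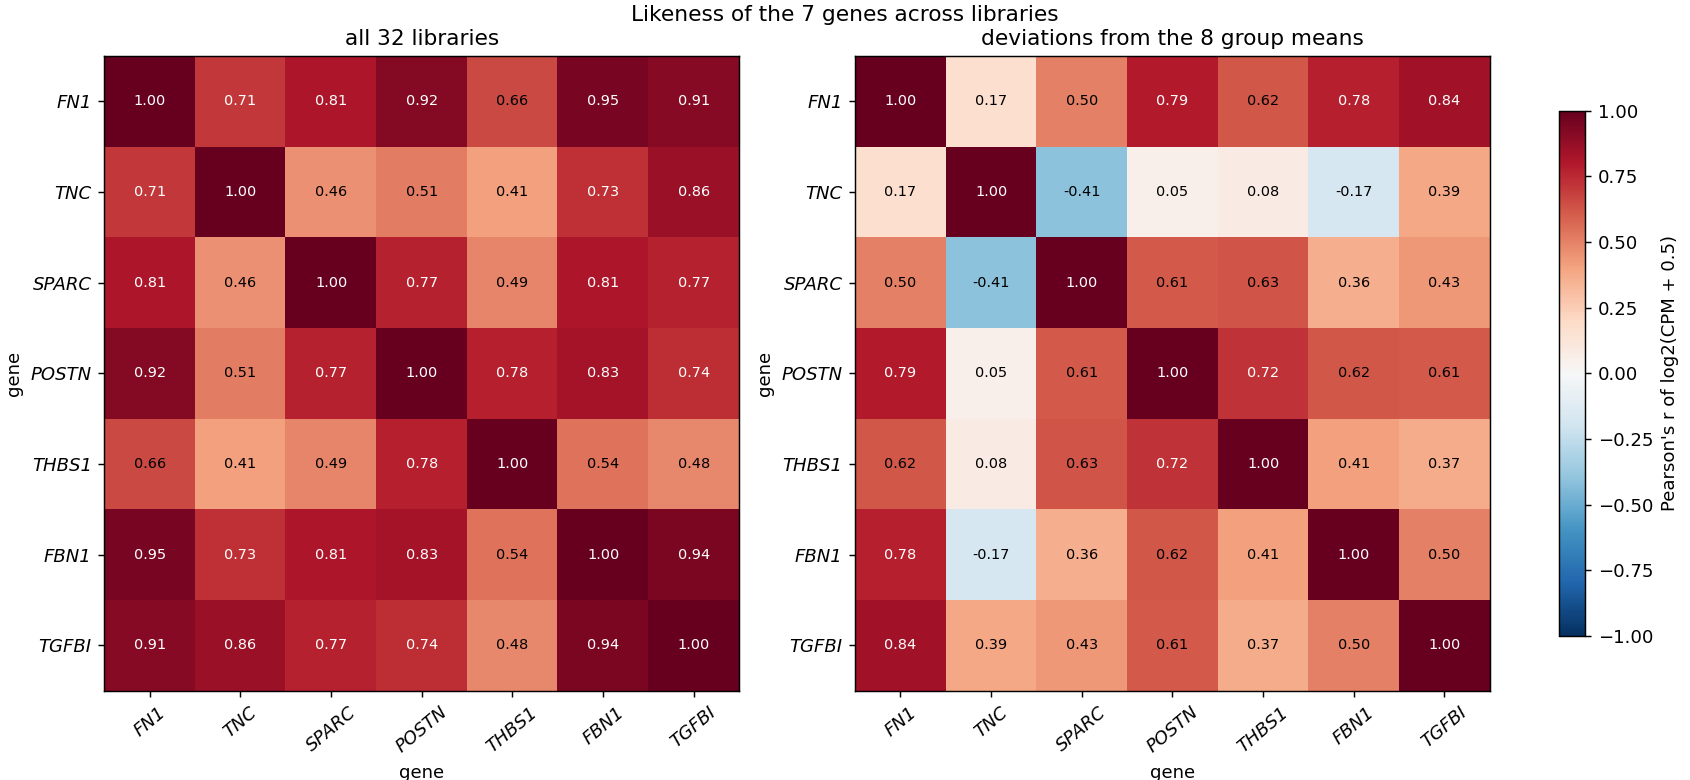
Pearson's r of log2(CPM + 0.5) between each pair of the 7 genes, over all 32 libraries at left and over deviations from the 8 group means at right, from blue (-1) to red (1). The row of TNC turns pale or blue at right (-0.41 with SPARC, 0.17 with FN1), while FN1 keeps values of 0.78 to 0.84 with FBN1, POSTN and TGFBI.

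The genes most alike to each member over the 32 libraries were found among all tested genes. FN1 was most like CDH2, the gene of N-cadherin (r = 0.964), PLOD2, a collagen lysyl hydroxylase (0.962), and FBN1 (0.953). FBN1 was most like CERCAM (0.955), FN1 (0.953) and PDPN, the gene of podoplanin (0.953), and POSTN most like FN1 (0.919), CDH2 (0.903) and PRSS23 (0.900). Among the genes most like TGFBI were SLC46A3 (0.989) and SERPINE2, a protease inhibitor (0.973). Among the genes most like TNC were ATOSB (0.950) and DDAH2 (0.948), and SPARC was most like ANXA6 (0.950), NT5DC2 (0.943) and KDELR2 (0.924). THBS1 was most like CCN2 (0.938), TRIP10 (0.857) and TAGLN, an actin-binding protein gene (0.857), so its nearest gene was itself a matricellular TGFβ target.

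Related genes of the same families moved in both directions. Of 35 other thrombospondin, tenascin, SPARC-family, CCN, fibulin, fibrillin, LTBP and MFAP genes with VTN and SPP1, 23 were tested; at 72 h 10 were higher and 2 lower in WT (CCN3 and SPOCK2; 13.9% of all genes were higher and 38.4% lower), and 8 higher and 2 lower in mut (SPARCL1 and SPOCK1; 7.81% of all genes higher and 16.3% lower). Their median change was 0.16 in WT and 0.45 in mut, beside -0.19 and -0.09 for all genes. MFAP2, a microfibril protein gene, went from 1.02 ± 0.608 to 18.1 ± 7.84 CPM in WT (4.19 ± 0.68 on the log2 scale, adjusted p = 9.22e-06) and from 0.556 ± 0.732 to 7.49 ± 2.77 CPM in mut cells (4.60 ± 1.0, adjusted p = 0.00109). FBLN5, which helps to assemble elastic fibres, rose by 3.22 ± 0.72 in WT (adjusted p = 0.000469) and 4.07 ± 0.52 in mut (adjusted p = 1.5e-06), and SPP1, osteopontin, by 2.74 ± 0.62 and 3.0 ± 0.40 (adjusted p = 0.000537 and 2.16e-06). SPP1 was low, going from 0.117 ± 0.0270 (near the level of 3 counts) to 0.933 ± 0.470 CPM in WT. In mut it went from 0.425 ± 0.203 to 3.19 ± 0.740 CPM. Between genotypes at 72 h, 7 of the 23 were lower and 9 higher in mut, against 13.2% of all genes lower and 26.0% higher, and the higher ones included FBLN5, SPP1 and LTBP2.

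Of 13 receptor genes for these proteins, 11 were tested, and the same number rose at 72 h in each genotype: ITGA5, ITGAV, ITGB1, ITGB3, ITGB5 and ITGB6, 6 of 11, with ITGB8 and 1 other lower (CD36 in WT, CD47 in mut). Of all genes 13.9% were called higher and 38.4% lower in WT, and 7.81% and 16.3% in mut. ITGA5, the α chain of the classical fibronectin receptor, went from 205.9 ± 20.8 to 525.3 ± 69.7 CPM in WT and from 142.0 ± 18.3 to 317.1 ± 48.5 CPM in mut cells. Its changes were 1.35 ± 0.12 (adjusted p = 6.53e-10) and 1.16 ± 0.12 (adjusted p = 6.82e-08). ITGB6, whose product pairs with αv and binds fibronectin and latent TGFβ, rose by 2.82 ± 0.22 and 2.57 ± 0.22 (adjusted p = 5.97e-11 and 2.02e-09). ITGB3 rose by 6.33 ± 0.94 in WT, from 0.105 ± 0.0950 (near the level of 3 counts) to 6.52 ± 1.75 CPM, and by 1.85 ± 0.60 in mut, from 0.462 ± 0.312 to 1.44 ± 0.379 CPM (adjusted p = 2.61e-06 and 0.0249), and its interaction at 72 h was -4.48 ± 1.12 (adjusted p = 0.00880). Between genotypes at 72 h, ITGA5, ITGAV, ITGB1, ITGB3 and ITGB6 were lower and ITGB5 and ITGB8 higher in mut, 5 and 2 of 11 against 13.2% and 26.0% of all genes.

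The early TGFβ response genes SMAD7, SKIL, PMEPA1 and CCN2 were called higher than solvent at each time in both genotypes. SKIL, a transcriptional repressor of the pathway, rose by 1.87 ± 0.18 at 6 h in WT and 1.25 ± 0.18 in mut (adjusted p = 7.62e-08 and 7.27e-05). PMEPA1 rose by 2.77 ± 0.25 and 2.10 ± 0.24 (adjusted p = 3.03e-08 and 9.30e-06), and CCN2, a matricellular protein of the CCN family, by 1.32 ± 0.26 and 0.92 ± 0.24 (adjusted p = 0.000712 and 0.0190). SMAD7, an inhibitory SMAD, rose by 1.05 ± 0.10 and 0.55 ± 0.10 (adjusted p = 4.66e-08 and 0.00101). Of these 4 genes, the interaction was called for SMAD7 alone, with -0.70 ± 0.14 at 24 h (adjusted p = 0.00205) and -0.59 ± 0.14 at 72 h (adjusted p = 0.00447), next to -1.81 and -1.29 for TGFBI. CCN2 was higher in mut solvent by 1.06 ± 0.26 (adjusted p = 0.00699), while THBS1 had the uncalled 0.74 ± 0.31.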

How the data were processed

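RNA-seq counts of 32 MCF10A libraries in 8 groups of 4 were used. Per the labels and methods the authors trimmed reads with Trimmomatic and mapped them to Ensembl GRCh38 with STAR, whose gene counts they deposited as whole-number counts; versions, annotation release and strand setting are not given in the sources used here. The library kit does not mark strand, so reads of a gene and of an overlapping antisense gene cannot be told apart. The table had 17788 genes, of which GENCODE 44 named 17763, and no column of the authors' own comparisons was used.

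Libraries held 39702412 to 54651906 counts. Floors cover counting error only. Genes that passed filterByExpr (minimum count 10, minimum total 15; 14865 genes) were fitted with limma-voom (limma 3.58.1, edgeR 4.0.16, R 4.3.3) by group with library-size scaling, 17 comparisons, and called at a Benjamini-Hochberg adjusted p under 0.05 over all genes. Errors are model SE, and ± after a level is SD. The study calls its replicates independent biological replicates and seeded each clone in separate plates; with 2 clones per genotype, p-values measure the spread between these libraries. Alternatives were TMM factors, edgeR's quasi-likelihood test, DESeq2 1.42.0, other filters, a fold minimum, blocks, clones summed, the compared groups only and left-out libraries or series. Scripts were tested on simulated counts.

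Libraries of 1 clone and replication number formed a series. Their deviations from group means had a mean r of 0.302 within series (0.0296 to 0.673), and 30 of 32 libraries were most like their own series. The mean r between series was -0.0966. Deviations from a group mean cancel out over its series, so this value largely follows from the one within series. Series share a clone by the labels, so the series block is given beside results it changes.

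The members and gene lists were chosen with earlier results of these data known. The text names the 7 members, JUNB, for 2 lists the 3 genes of largest change called in WT at 72 h with a mean of at least 1 CPM, early response genes, and the 3 genes most like each member (Pearson's r of log2(CPM + 0.5)). Some genes that these rules name are not reported here. Other genes are named as items of a list's counts. Promoters came from RefSeq (GRCh38.p14), with 7 of 7 members matched.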

Additional observations from a re-analysis of the deposited data

Results flagged for a closer look

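In 3 of 56 groups of 4 libraries (7 genes in 8 groups) 1 library stood apart from the others, its gap to the nearest library, as a share of the group's range on the log2 CPM scale, exceeding Dixon's critical value, which chance gives in about 1 in 20 groups. POSTN had 62.0 CPM in the WT 6 h library 27-2, next to 2.56 CPM in the nearest library (0.889 of the range). THBS1 had 2185 CPM in the same library, next to 1072 CPM (0.903 of the range). TGFBI had 3303 CPM in the mut 24 h library 1-1, next to 2155 CPM (0.855 of the range). On the CPM scale 8 of the 56 groups passed the same value: these 3, FN1, POSTN and TGFBI in the mut solvent library 1-2, and POSTN in WT 27-2 with solvent and at 24 h.

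The change of TGFBI from solvent differed between genotypes, by -1.81 ± 0.33 at 24 h (interaction test in limma-voom, adjusted p = 0.00132) and by -1.29 ± 0.34 at 72 h (adjusted p = 0.0120). In each of the 4 mut series the change was below the WT mean at both times.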

How the results depend on the processing

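Over 119 changes (7 genes in 17 comparisons) and 15 settings, 1379 of 1547 values kept their direction and side of the threshold, and 1034 of 1120 did when 1 library was left out. No call changed sign. With the low-count filter removed, and with clone as a random effect or replication number as replicate block in mut against WT, every value kept its call. The causes of the changes below were not tested.

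Counts of members called that moved by more than 1.5 times were these. Shares of all genes called are given only for the main fit and the series block, so counts under other settings have none beside them. For WT at 6 h, 3 became 5 with series fitted as replicate block and TMM factors. For mut at 6 h, 1 became 2 with DESeq2, with the replicate block (with or without TMM), with the compared groups only and without series WT 27-2, 3 without mut 1-2 and 4 without both. For WT from 24 to 72 h, 1 became 0 with edgeR, DESeq2, compared groups only and clones summed, 5 with the replicate block, 4 with block and TMM, 2 without WT 27-2 and 4 without both series. For mut from 6 to 24 h, 2 became 4 with DESeq2, 5 with the replicate block (with or without TMM), 0 with clones summed and 4 without WT 27-2. For mut from 24 to 72 h, 1 became 0 with edgeR, DESeq2, clones summed and without mut 1-2, 6 with the replicate block (with or without TMM), 5 with compared groups only, 3 without WT 27-2 and 2 without both. For mut against WT in solvent, 0 became 1 with edgeR, DESeq2, compared groups only (TNC in each), without WT 27-2 (THBS1) and without mut 1-2 (TGFBI), and 2 without both. At 6 h, 2 became 1 with a fold minimum and without mut 1-2, and 4 with compared groups only. For the interaction, 0 became 1 at 6 h with the replicate block (with or without TMM). At 24 h, 1 became 2 with edgeR and DESeq2 and 3 with the replicate block (with or without TMM). At 72 h, 1 became 4 with the replicate block (with or without TMM), 0 with compared groups only and clones summed, and 2 without both series. Leaving out 1 library gave 0 to 2 for mut at 6 h, 0 to 3 for WT from 24 to 72 h and for mut from 6 to 24 h, 0 to 2 for mut from 24 to 72 h, and for mut against WT 0 to 1 in solvent, 1 to 4 at 6 h and 3 to 5 at 24 h.

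Smaller moves included WT at 6 h, 2 with compared groups only and clones summed (THBS1 lost) and 4 with edgeR, DESeq2, the replicate block (FBN1 gained) and without both series (FN1 gained), and WT at 24 h, 6 (SPARC lost) with a fold minimum, compared groups only, clones summed and without mut 1-2. SPARC was also lost from mut at 72 h with a fold minimum, clones summed and without mut 1-2.

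Uncalled values that changed sign were these (log2). SPARC in WT at 6 h was 0.04 with TMM (and with block and TMM), 0.07 with edgeR and 0.08 with DESeq2. Without mut 1-2, and also without both series, SPARC in mut at 6 h was 0.01, POSTN in mut at 6 h 2.05 and THBS1 in mut from 24 to 72 h -0.09. POSTN in mut against WT was 0.64, 0.01 and 0.10 at 6, 24 and 72 h without WT 27-2, 0.03 at 6 h without mut 1-2, and 1.31, 0.57 and 0.14 without both. The 6 h interaction was 0.20 for FN1, 0.04 for SPARC and 0.06 for THBS1 without mut 1-2, -0.03 for TNC without WT 27-2, and 0.003 for FN1 and 0.09 for SPARC without both. The 24 h interaction of THBS1 was 0.01 with DESeq2.

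With 1 library left out, the values crossing 0 ranged from -0.26 to 0.15 (SPARC, WT 6 h), -0.25 to 0.04 (SPARC, mut 6 h), -0.0049 to 0.25 (SPARC, mut 24 h), -1.03 to 1.39 (POSTN, mut 6 h) and -0.06 to 0.36 (FBN1, mut 6 h). For POSTN in mut against WT they were -1.19 to 0.65 at 6 h, -1.01 to 0.01 at 24 h and -0.41 to 0.10 at 72 h. For the interaction they were -0.20 to 0.26 (TNC), -0.23 to 0.18 (SPARC) and -0.60 to 0.14 (THBS1) at 6 h, -0.50 to 0.24 (THBS1) at 24 h and -0.92 to 0.09 (FN1) at 72 h. Of 56 group levels, 55 moved by less than 1 SD under TMM, and TGFBI in WT at 24 h moved by more.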
